A study of Mus musculus with 8 samples.

Results

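Collagen chain genes were taken as the genes of the count table whose symbol is Col, a type number, a and a chain number. There were 44 of them among 24516 genes, and 40 passed the filter on low counts that left 15075 genes for testing. By the usual grouping of collagen types, 11 encode chains of fibrillar collagens, 8 encode chains of basement membrane collagens and 25 encode chains of the other types. All 11 fibrillar, all 8 basement membrane and 21 of the other genes were tested. The 4 left out were Col6a4, Col9a1, Col10a1 and Col19a1, each with at most 8 counts in any library.

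The hearts came from mice at postnatal day 40, taken from a single litter, and were profiled by bulk RNA sequencing. Mice were homozygous or heterozygous for a deletion, made with CRISPR/Cas9, of a conserved enhancer of Actn2, or wild type. There were 3 homozygous, 3 heterozygous and 2 wild-type libraries (n = 3, 3 and 2). Actn2 encodes alpha-actinin of the sarcomere Z-disc. The labels name whole heart only, with no sex, no chamber and no founder line, and they do not say whether each library is 1 animal, so the p-values measure the spread between these libraries.

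Collagens are matrix proteins built from alpha chains, each with long runs of a glycine repeat, that wind together into a helix. Chains of type I and type III form the stiff fibrils of the heart interstitium, type V starts and thins those fibrils, and fibroblasts make most of them. Type IV forms the network under endothelial cells and around cardiac myocytes, and types XV and XVIII link it to the surrounding matrix. Type VI makes beaded filaments near cells, type VIII makes short-chain networks, and several further types decorate fibrils, span membranes or anchor epithelia.

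Libraries held 22230090 to 55902737 counts. Actn2 itself stood at 2115, 1611 and 1791 CPM (counts scaled by TMM to a library of 1e6) in homozygous hearts, 1693, 1546 and 1638 CPM in heterozygous hearts, and 2187 and 2703 CPM in wild-type hearts. Every deletion library lay below both wild-type libraries. The log2 difference from wild type was -0.59 ± 0.16 (SE, adjusted p = 0.0193) in heterozygous hearts and -0.41 ± 0.16 (SE, adjusted p = 0.0771) in homozygous hearts. Cardiomyocyte markers were the most abundant of the marker lists in every library, with a summed level of 64630 to 73010 CPM in homozygous, 65490 to 69480 CPM in heterozygous and 78960 and 90460 CPM in wild-type hearts. Across all genes tested, the 15 pairs of deletion libraries correlated at 0.969 to 0.982 on log2 CPM, deletion libraries correlated with wild type 1 at 0.957 to 0.966 and with wild type 2 at 0.927 to 0.935, and the wild-type libraries correlated with each other at 0.952. Wild type 2 therefore stood apart from the other libraries, and both comparisons with wild type below rest on the same 2 wild-type libraries.

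Type IV, type III and type I chains carried most of the collagen signal. Per kilobase of exon, Col4a1 had the highest mean over the 8 libraries (125.5 CPM per kb, range 79.3 to 162), then Col4a2 (91.7, range 59.1 to 115), Col3a1 (88.1, range 49.6 to 131) and Col1a2 (36.9, range 24.8 to 63.2). Col6a1, of the beaded filament type VI, followed at 36.4 CPM per kb. Summed over the 44 genes, collagen chains took 3518, 3515 and 2518 CPM in homozygous hearts, 3981, 3567 and 2790 CPM in heterozygous hearts, and 4439 and 2385 CPM in wild-type hearts. The 2 wild-type libraries bracketed all 6 deletion libraries, so the genotypes overlapped in total collagen signal.

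The classes behaved alike in this respect. Fibrillar genes summed to 1116, 1230 and 753 CPM in homozygous, 1251, 1149 and 965 CPM in heterozygous, and 1699 and 781 CPM in wild-type hearts. Basement membrane genes summed to 1929, 1765 and 1415 CPM in homozygous, 2148, 1908 and 1411 CPM in heterozygous, and 2100 and 1197 CPM in wild-type hearts. The other genes summed to 473, 520 and 351 CPM in homozygous, 582, 510 and 413 CPM in heterozygous, and 639.6 and 407 CPM in wild-type hearts. In each class wild type 1 was well above wild type 2, and the deletion libraries lay mostly in between. In whole-heart RNA, fewer cells of a type and less RNA per cell cannot be told apart.

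**Figure D1:**
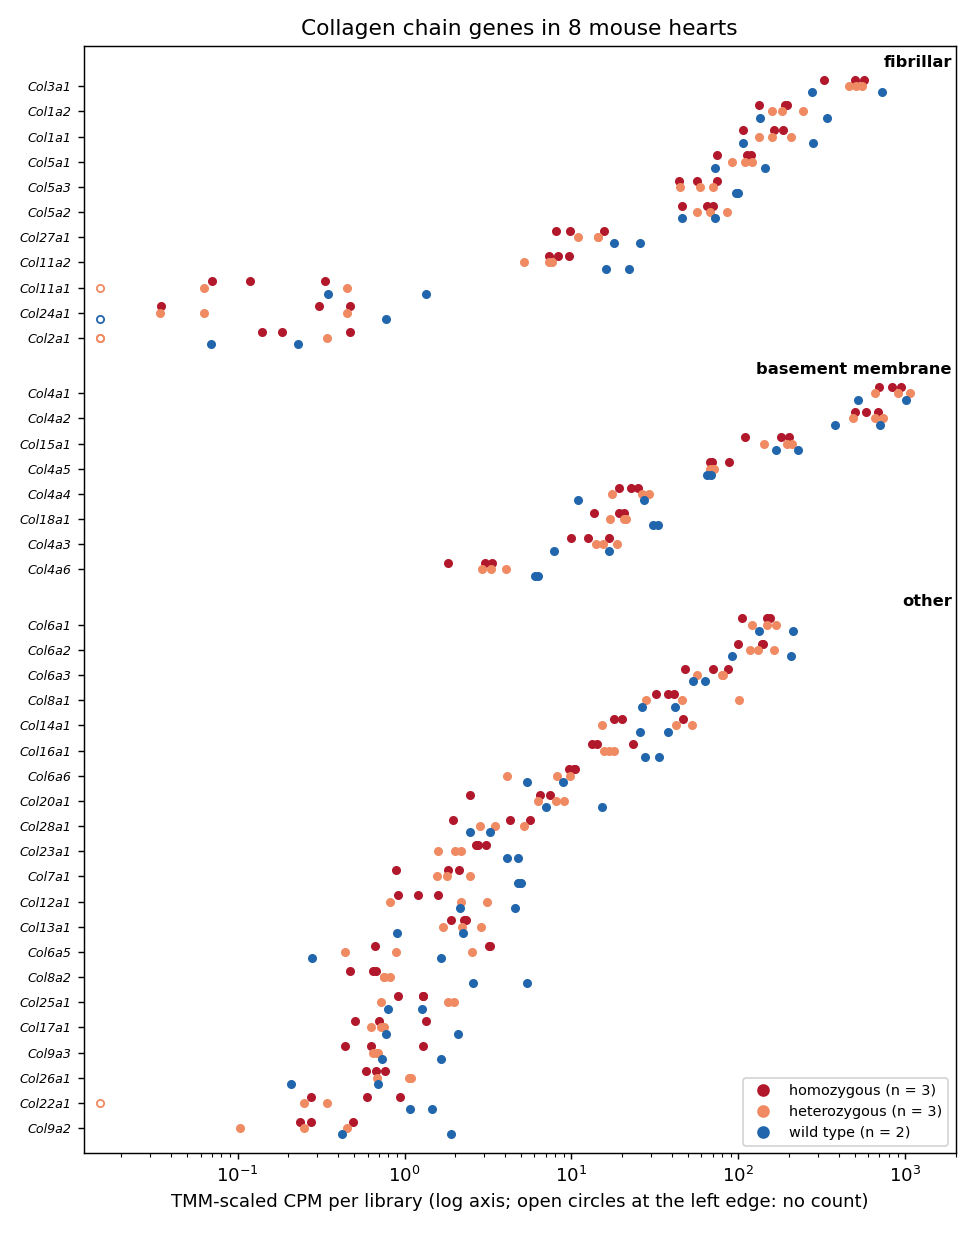
Level of the 40 tested collagen chain genes in each library, as TMM-scaled CPM on a log axis, by class and ordered by mean level. Dots are homozygous (3 libraries), heterozygous (3) and wild-type (2) hearts, and open circles mark libraries with no count. Col4a1 lies highest, with 525 to 1074 CPM, and wild type 1 lies above wild type 2 in 28 of the 40 genes.

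Against wild type, 8 of 40 tested collagen genes fell in homozygous hearts and 7 of 40 fell in heterozygous hearts, and none rose in either. Calls use an adjusted p of at most 0.05 from the edgeR quasi-likelihood test. Over all 15075 genes, 12.4% were lower and 15.3% were higher in homozygous hearts by the same rule, and 12.8% were lower and 15.2% higher in heterozygous hearts. The shares of collagen genes called lower were 20% and 17.5%, above those backgrounds by few genes. Without wild type 2, 4 of 40 (10%) were lower in homozygous and 2 of 40 (5%) in heterozygous hearts, against 3.58% and 4.62% of all genes tested in that fit. Leaving out homozygous 1 gave 5 lower and homozygous 3 gave 4 lower in homozygous hearts, and leaving out heterozygous 2 or heterozygous 3 gave 4 lower in heterozygous hearts. The shares over all genes were not counted in these fits without a deletion library, so whether the collagen counts only followed them is not known. Without wild type 1, 8 of 40 (20%) were lower in homozygous and 7 of 40 (17.5%) in heterozygous hearts, against 16.6% and 16.7% of all genes in that fit. In the same fit 1 of 40 (2.5%) was higher in homozygous and 4 of 40 (10%) in heterozygous hearts, against 19.8% and 19.2% of all genes. The median log2 difference over the 40 genes was -0.31 in homozygous and -0.24 in heterozygous hearts, against -0.03 over all genes in each comparison. Col5a3, Col11a2, Col18a1, Col16a1, Col8a2 and Col7a1 were called in both comparisons, Col27a1 and Col4a6 in homozygous hearts, and Col23a1 in heterozygous hearts. In all 9 of these genes and in Col22a1 (10 of 40, 25%), every deletion library lay below both wild-type libraries. No tested collagen gene had every deletion library above both. These 2 patterns were not counted over all genes, so the 25% has no background share beside it. For the called genes the pattern largely restates the call.

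The 9 genes are not the abundant ones. Their mean levels ran from 1.51 to 68.2 CPM, with a median of 10.5 CPM, and they summed to 112, 151 and 98.5 CPM in homozygous hearts, 131, 127 and 110 CPM in heterozygous hearts, and 216 and 226 CPM in wild-type hearts. The 31 tested genes that were not called had mean levels of 0.18 to 830.3 CPM, with a median of 14.0 CPM.

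**Figure D2:**
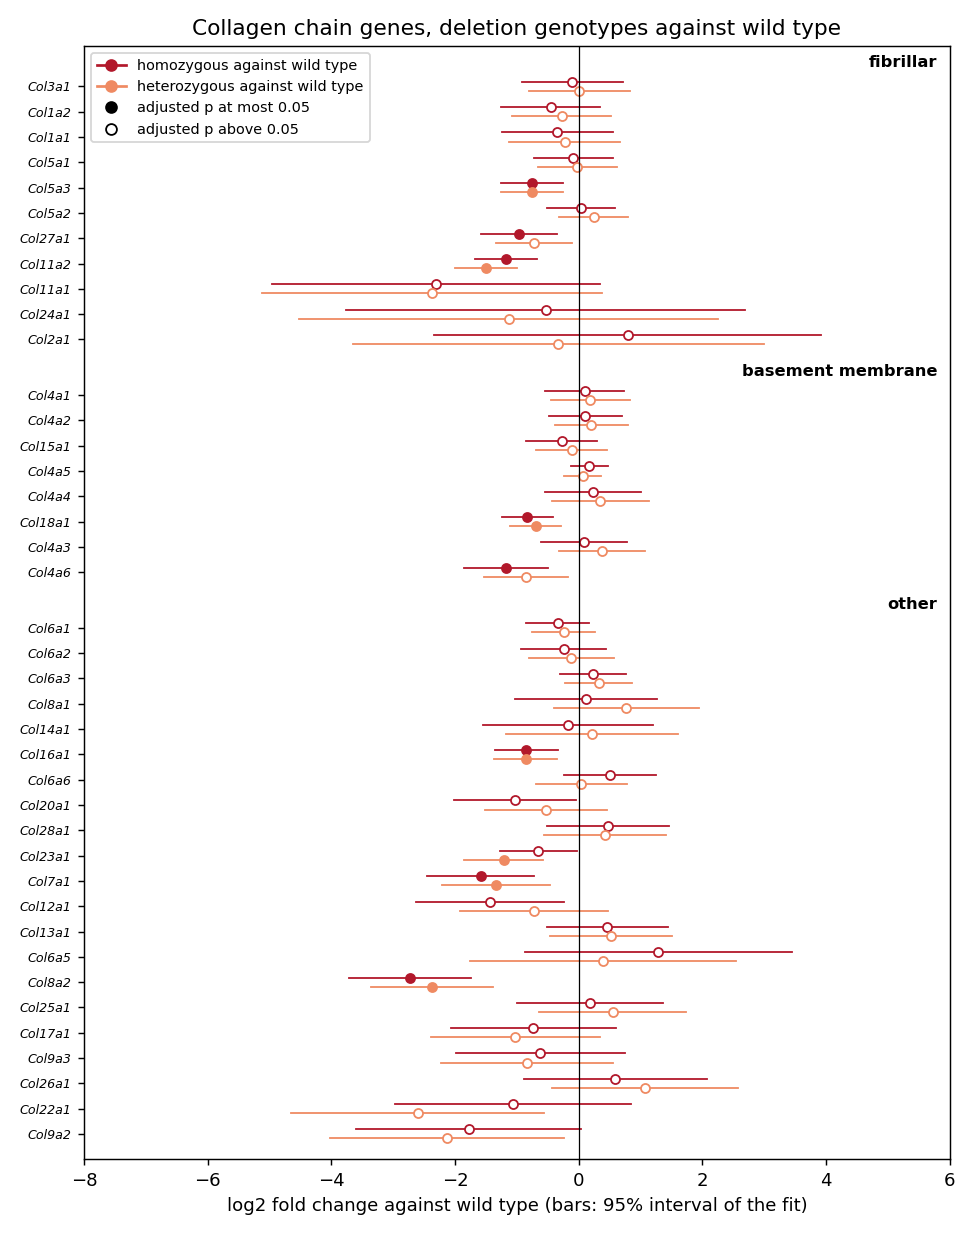
Log2 difference from wild type of the 40 tested genes, by class, for homozygous and heterozygous hearts, with the 95% interval of the fit as a bar and filled dots for adjusted p at most 0.05. The filled dots all lie left of 0, from -2.73 for Col8a2 in homozygous hearts to -0.70 for Col18a1 in heterozygous hearts.

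Among fibrillar genes, 3 of 11 fell in homozygous hearts (Col5a3, Col11a2 and Col27a1) and 2 of 11 fell in heterozygous hearts (Col5a3 and Col11a2). The class median log2 difference was -0.45 in homozygous and -0.33 in heterozygous hearts. Col5a3 (chr9:20770050-20815067, minus strand of GRCm38) encodes the third chain of type V. It stood at 56.8, 74.1 and 43.9 CPM in homozygous hearts, 71.0, 58.7 and 44.6 CPM in heterozygous hearts, and 100.1 and 96.3 CPM in wild-type hearts. Both wild-type libraries lay above every deletion library. The level was 0.59 times wild type in both genotypes (log2 difference -0.75 ± 0.22, SE, adjusted p = 0.0315, in homozygous hearts and -0.76 ± 0.22, SE, adjusted p = 0.0304, in heterozygous hearts).

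Col11a2, a chain of the type XI collagen of cartilage fibrils that can mix with type V, stood at 7.36, 8.28 and 9.68 CPM in homozygous hearts, 5.22, 7.61 and 7.35 CPM in heterozygous hearts, and 16.2 and 21.97 CPM in wild-type hearts. The groups did not overlap. Its level was 0.44 times wild type in homozygous hearts (95% interval 0.31 to 0.62, adjusted p = 0.0045) and 0.35 times wild type in heterozygous hearts (0.25 to 0.50, adjusted p = 0.00136). Col27a1, a fibrillar chain known from cartilage, stood at 8.06, 15.7 and 9.83 CPM in homozygous hearts, 10.9, 14.5 and 14.3 CPM in heterozygous hearts, and 18.1 and 25.8 CPM in wild-type hearts. It fell in homozygous hearts (log2 difference -0.97 ± 0.28, SE, adjusted p = 0.0255), and its difference was -0.73 ± 0.28 (SE, adjusted p = 0.0738) in heterozygous hearts.

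The abundant fibrillar chains did not pass the test. Col1a1 stood at 164, 185 and 107 CPM in homozygous hearts, 205.5, 159 and 132 CPM in heterozygous hearts, and 280.3 and 107 CPM in wild-type hearts. Col1a2, its partner in type I, stood at 191, 195 and 133 CPM in homozygous hearts, 244, 182.5 and 159 CPM in heterozygous hearts, and 338 and 135 CPM in wild-type hearts. In type I genes, wild type 1 was the highest of the 8 libraries and wild type 2 was among the lowest. Col3a1 stood at 502.5, 569 and 328 CPM in homozygous hearts, 508, 549.6 and 459 CPM in heterozygous hearts, and 728 and 276 CPM in wild-type hearts. Col5a1 stood at 119.8, 112 and 74.5 CPM in homozygous hearts, 120.1, 109 and 91.9 CPM in heterozygous hearts, and 144 and 72.7 CPM in wild-type hearts. For Col1a1, Col3a1 and Col5a1, all 6 deletion libraries lay between the wild-type libraries, as they did in 5 of 40 tested collagen genes (12.5%) and in 3.59% of all genes tested.

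The fitted levels of these 4 genes against wild type had wide intervals. Col1a1 was at 0.79 times wild type in homozygous hearts (95% interval 0.42 to 1.47) and 0.85 times in heterozygous hearts (0.46 to 1.60). Col3a1 was at 0.93 times wild type in homozygous hearts (0.53 to 1.64) and 1.01 times in heterozygous hearts (0.57 to 1.78). Without wild type 1, the log2 difference was 0.76 in homozygous and 0.88 in heterozygous hearts for Col3a1, 0.52 and 0.64 for Col1a1, 0.37 and 0.54 for Col1a2, and 0.50 and 0.56 for Col5a1, and without wild type 2 all 8 of these values were negative (-0.93 to -0.40). Of these, the Col3a1 value of heterozygous hearts without wild type 1 was called (adjusted p = 0.0354). Col5a2, the remaining type V chain, ranged from 45.9 to 85.7 CPM, and Col2a1, Col11a1 and Col24a1 each stayed under 1.4 CPM in every library.

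In type I and type III, the ratios between chains were steadier than the levels. Per length, the ratio of Col1a1 to Col1a2 ran from 0.71 to 0.86 over all 8 libraries. Col3a1 to Col1a1 was 3.26, 3.27 and 3.27 in homozygous hearts, 2.63, 3.69 and 3.71 in heterozygous hearts, and 2.77 and 2.76 in wild-type hearts. Heterozygous hearts covered both other groups.

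**Figure D3:**
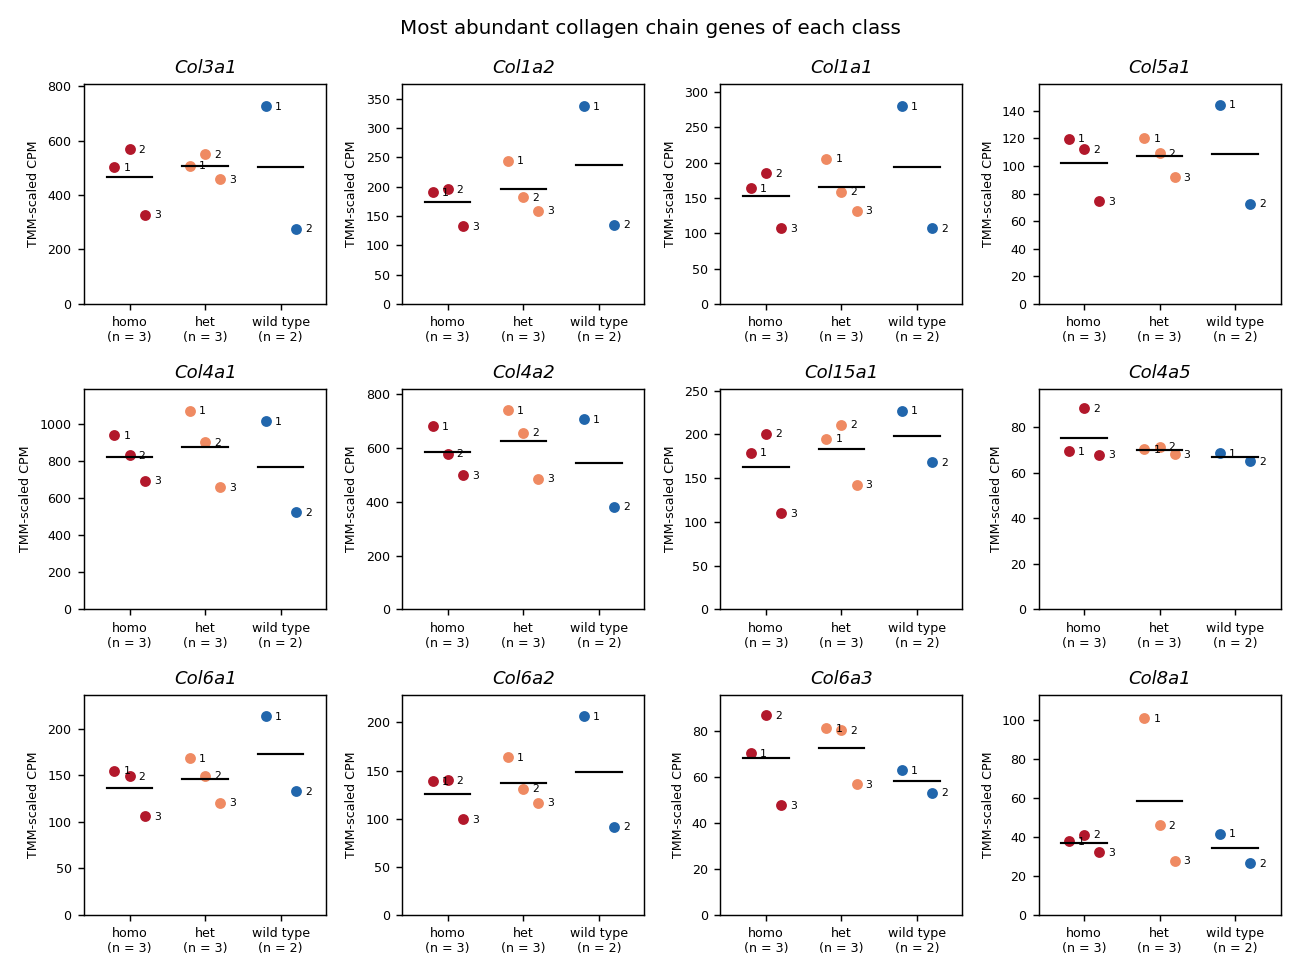
TMM-scaled CPM in each library of the 4 most abundant genes of each class, with the library number beside each dot and a line at the group mean. For Col1a1, Col3a1 and Col5a1, wild type 1 and wild type 2 enclose all 6 deletion libraries. Col4a5 is nearly level, at 65.1 to 88.3 CPM.

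Among basement membrane genes, 2 of 8 fell in homozygous hearts (Col4a6 and Col18a1) and 1 of 8 fell in heterozygous hearts (Col18a1). The class median was a log2 difference of 0.09 in homozygous and 0.13 in heterozygous hearts. Col18a1 encodes the chain of type XVIII, a heparan sulfate proteoglycan whose end fragment is endostatin. It stood at 19.4, 20.7 and 13.7 CPM in homozygous hearts, 17.1, 21.3 and 20.6 CPM in heterozygous hearts, and 30.8 and 33.0 CPM in wild-type hearts. Its level was 0.56 times wild type in homozygous hearts (95% interval 0.42 to 0.75, adjusted p = 0.00887) and 0.62 times in heterozygous hearts (0.46 to 0.82, adjusted p = 0.0191).

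Col4a5 and Col4a6 start next to each other on chromosome X in opposite directions (chrX:141475385-141689234 on the plus strand and chrX:141165403-141474076 on the minus strand of GRCm38), and their products can join in 1 network. Col4a6 stood at 3.02, 3.33 and 1.83 CPM in homozygous hearts, 3.31, 4.04 and 2.91 CPM in heterozygous hearts, and 6.05 and 6.34 CPM in wild-type hearts. It fell in homozygous hearts (log2 difference -1.18 ± 0.31, SE, adjusted p = 0.0170), and the difference in heterozygous hearts was -0.86 ± 0.31 (SE, adjusted p = 0.0601). Col4a5 stood at 69.5, 88.3 and 67.9 CPM in homozygous hearts, 70.3, 71.4 and 68.0 CPM in heterozygous hearts, and 68.5 and 65.1 CPM in wild-type hearts. Its interval was the narrowest of the 12 abundant genes, at 0.92 to 1.38 times wild type in homozygous and 0.85 to 1.29 times in heterozygous hearts. Per length, Col4a6 was at 0.0265 to 0.0428 of the level of Col4a5 in homozygous hearts, 0.0420 to 0.0557 in heterozygous hearts, and 0.0869 and 0.0958 in wild-type hearts. The ratio overlapped between the deletion genotypes, and both wild-type libraries lay above.

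Col4a1 and Col4a2, the chains of the common type IV network, also start head to head (chr8:11198423-11312826 on the minus strand and chr8:11312805-11449287 on the plus strand of GRCm38), and their annotated exons share 22 bases. Col4a1 stood at 941, 831 and 694 CPM in homozygous hearts, 1074, 902 and 659.7 CPM in heterozygous hearts, and 1016 and 525 CPM in wild-type hearts. Col4a2 stood at 682, 579 and 498 CPM in homozygous hearts, 740.1, 656 and 486 CPM in heterozygous hearts, and 708 and 381 CPM in wild-type hearts. The pair kept a ratio per length of 1.32 to 1.42 in all 8 libraries while their levels varied, and neither was called. Without wild type 1, Col4a2 was called higher in heterozygous hearts (log2 difference 0.73, adjusted p = 0.0426), as were Col4a3 (1.03, adjusted p = 0.0201) and Col4a4 (1.16, adjusted p = 0.00916), and Col4a4 also in homozygous hearts (1.05, adjusted p = 0.0146). Col15a1 stood at 179, 201 and 110.1 CPM in homozygous hearts, 195, 211 and 142 CPM in heterozygous hearts, and 227 and 168 CPM in wild-type hearts. The groups overlapped in Col15a1.

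The promoter windows of this pair are shown because they lie on opposite strands of 1 shared region. Each runs from 250 bases before the RefSeq start to 50 bases after it, in GRCm38.p6, 5′ to 3′ on the gene's own strand, for Col4a1 at chr8:11312777-11313076 (minus) and Col4a2 at chr8:11312555-11312854 (plus). Capitals mark GGGCGG (GC box, also as CCGCCC) and CCAAT (also as ATTGG), searched on both strands along with TATAAA.
Col4a1: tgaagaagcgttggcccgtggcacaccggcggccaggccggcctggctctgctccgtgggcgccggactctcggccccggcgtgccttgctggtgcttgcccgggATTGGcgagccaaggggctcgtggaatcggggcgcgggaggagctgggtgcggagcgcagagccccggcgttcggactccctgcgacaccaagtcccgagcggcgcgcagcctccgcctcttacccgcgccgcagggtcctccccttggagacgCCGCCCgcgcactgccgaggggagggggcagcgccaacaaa
Col4a2: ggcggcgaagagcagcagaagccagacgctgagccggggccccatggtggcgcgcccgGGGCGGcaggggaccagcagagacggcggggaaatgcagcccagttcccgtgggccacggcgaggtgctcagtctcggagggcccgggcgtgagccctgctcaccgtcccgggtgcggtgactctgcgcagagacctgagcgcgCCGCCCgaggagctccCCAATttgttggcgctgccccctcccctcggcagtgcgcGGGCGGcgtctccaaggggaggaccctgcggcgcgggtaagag
Col4a1 has 1 GC box and 1 CCAAT box in these letters, Col4a2 has 3 GC boxes and 1 CCAAT box, and neither window holds TATAAA. The windows overlap, and the GC box of Col4a1 is the last GC box of Col4a2 read on the other strand.

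Among the other types, 3 of 21 fell in homozygous hearts (Col16a1, Col8a2 and Col7a1) and 4 of 21 fell in heterozygous hearts (the same 3 and Col23a1). The class median was -0.34 in homozygous and -0.24 in heterozygous hearts. Col8a2, a chain of the type VIII short-chain network known from the cornea and vessel wall, had the largest difference of the tested collagen genes called in homozygous hearts. It stood at 0.672, 0.645 and 0.472 CPM in homozygous hearts, 0.817, 0.751 and 0.753 CPM in heterozygous hearts, and 2.58 and 5.41 CPM in wild-type hearts. Its level was 0.15 times wild type in homozygous hearts (95% interval 0.08 to 0.30, adjusted p = 0.00215) and 0.19 times in heterozygous hearts (0.10 to 0.38, adjusted p = 0.00387).

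Col8a1, the partner chain of Col8a2, stood at 37.7, 41.2 and 32.1 CPM in homozygous hearts, 101, 45.9 and 27.9 CPM in heterozygous hearts, and 41.6 and 26.5 CPM in wild-type hearts. Heterozygous 1 stood far above the other 7 libraries, and the gene was not called. Per length, Col8a2 was at 0.0173 to 0.0210 of the level of Col8a1 in homozygous hearts, 0.00953 to 0.0318 in heterozygous hearts, and 0.0733 and 0.240 in wild-type hearts.

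Col16a1, a chain that sits on fibrils and at cell surfaces, stood at 13.2, 23.3 and 14.2 CPM in homozygous hearts, 17.9, 16.8 and 15.7 CPM in heterozygous hearts, and 33.5 and 27.5 CPM in wild-type hearts. The level was 0.56 times wild type in homozygous hearts (adjusted p = 0.0201) and 0.55 times in heterozygous hearts (adjusted p = 0.0189). Col7a1, of the anchoring fibrils of skin, stood at 0.886, 1.83 and 2.13 CPM in homozygous hearts, 2.45, 1.78 and 1.57 CPM in heterozygous hearts, and 4.78 and 4.96 CPM in wild-type hearts. It fell by 1.59 ± 0.39 on the log2 scale (SE, adjusted p = 0.0138) in homozygous hearts and by 1.33 ± 0.40 (SE, adjusted p = 0.0290) in heterozygous hearts. Col23a1, which spans the membrane, stood at 2.69, 3.07 and 2.75 CPM in homozygous hearts, 1.996, 1.60 and 2.19 CPM in heterozygous hearts, and 4.13 and 4.78 CPM in wild-type hearts. It fell in heterozygous hearts (log2 difference -1.21 ± 0.29, SE, adjusted p = 0.0115), and its difference was -0.65 ± 0.28 (SE, adjusted p = 0.114) in homozygous hearts.

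The chains of type VI, which hold cells to the fibrils, were not called. Col6a1 stood at 154.6, 149 and 106 CPM in homozygous hearts, 168, 149 and 120.5 CPM in heterozygous hearts, and 213.5 and 132.5 CPM in wild-type hearts. Col6a2 stood at 139, 140.0 and 99.5 CPM in homozygous hearts, 164, 131 and 117 CPM in heterozygous hearts, and 206 and 91.6 CPM in wild-type hearts. Col6a3 stood at 70.4, 86.7 and 47.6 CPM in homozygous hearts, 81.0, 80.3 and 56.7 CPM in heterozygous hearts, and 62.9 and 53.1 CPM in wild-type hearts. Its interval against wild type ran from 0.81 to 1.71 times in homozygous and from 0.86 to 1.82 times in heterozygous hearts. Another 13 tested genes of these types were not called. Among them, Col12a1, a fibril-associated chain of dense connective tissue, differed from wild type by log2 -1.43 ± 0.54 (SE, adjusted p = 0.0730) in homozygous hearts, and Col22a1, a chain found at tissue junctions, by -2.60 ± 0.93 (SE, adjusted p = 0.0583) in heterozygous hearts. DESeq2 called Col12a1 in homozygous hearts (adjusted p = 0.0417) and Col22a1 in heterozygous hearts (adjusted p = 0.0173), and limma-voom called Col22a1 there too (adjusted p = 0.0454).

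**Figure D4:**
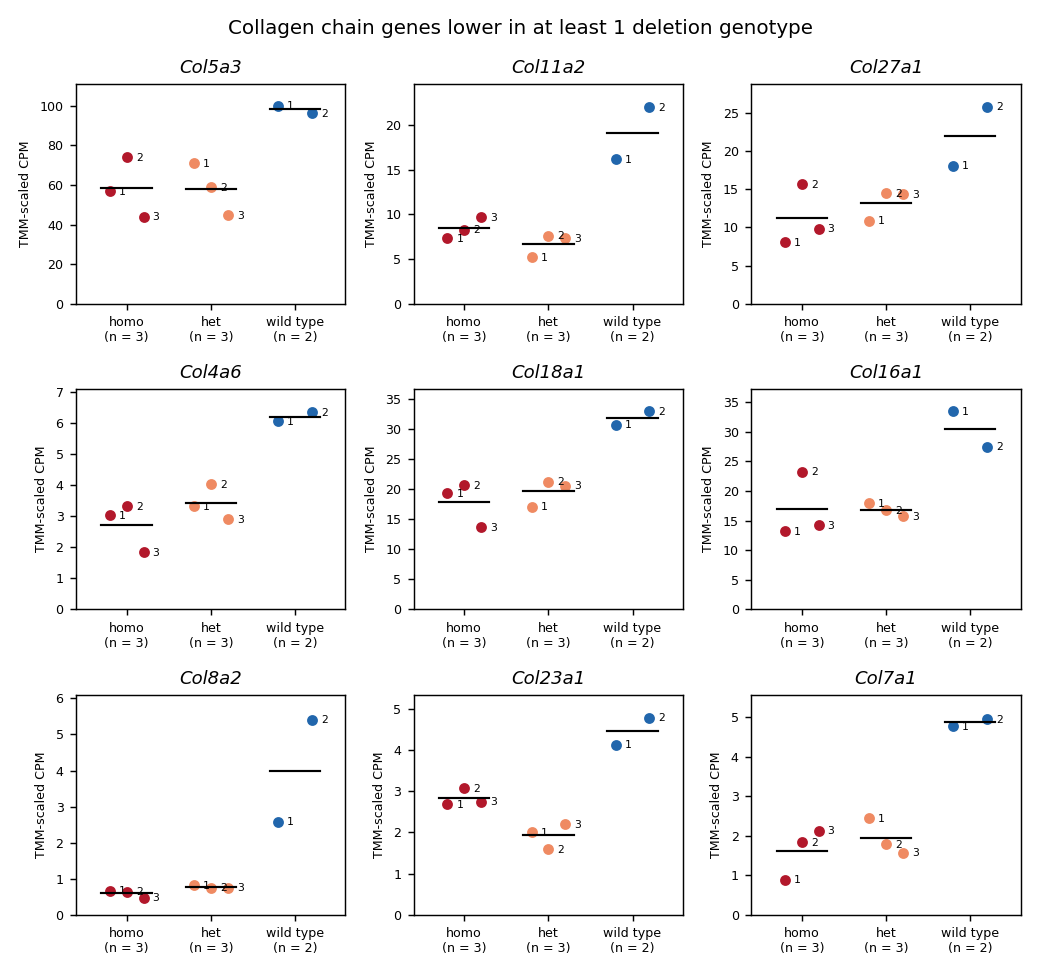
TMM-scaled CPM in each library of the 9 genes called lower in homozygous or heterozygous hearts, with the library number beside each dot and a line at the group mean. In each panel, the 6 deletion libraries lie below both wild-type libraries.

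No collagen chain gene was called between homozygous and heterozygous hearts. The edgeR test called 0 of 40, with 0 at an unadjusted p under 0.05, and called 0% of all 15075 genes. DESeq2 called 3 of 15075 genes and limma-voom 0, none of them a collagen gene, and both also had 0 collagen genes at an unadjusted p under 0.05. The median log2 difference of homozygous from heterozygous hearts over the 40 genes was -0.10. The smallest p was for Col23a1 (1.47 times heterozygous, 95% interval 0.98 to 2.21, adjusted p = 0.9996), followed by Col22a1 (2.91 times, 0.77 to 10.9) and Col6a6 (1.38 times, 0.88 to 2.17). Among the abundant chains, the interval of Col4a5 ran from 0.90 to 1.29 times heterozygous, Col4a1 from 0.63 to 1.38 times, Col3a1 from 0.55 to 1.54 times and Col1a1 from 0.53 to 1.61 times. Homozygous 3 was the lowest of the 6 deletion libraries in 19 of 40 tested collagen genes. That pattern was not counted over all genes, so it has no background share beside it.

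Other cell markers moved in the same samples. The counts of markers called below stand beside 12.4% lower and 15.3% higher of all genes tested in homozygous hearts. In heterozygous hearts these shares were 12.8% and 15.2%. The 11 markers of valve, tendon and cartilage-like tissue summed to 23.3, 29.1 and 23.0 CPM in homozygous hearts, 24.6, 24.9 and 25.1 CPM in heterozygous hearts, and 88.8 and 78.7 CPM in wild-type hearts, and 8 of 10 tested were lower in each genotype. Tnmd, a tendon marker, had no count in any of the 6 deletion libraries and was at 0.62 CPM in both wild-type libraries. The 13 fibroblast markers summed to 2918, 2910 and 2401 CPM in homozygous hearts, 3145, 2726 and 2843 CPM in heterozygous hearts, and 4657 and 4546 CPM in wild-type hearts, and 5 of 13 were lower in homozygous and 4 of 13 in heterozygous hearts. Among the fibroblast genes, Pdgfra ran from 61.3 to 78.3 CPM in homozygous hearts, 70.5 to 93.2 CPM in heterozygous hearts, and 59.4 to 73.3 CPM in wild-type hearts. Dcn ran from 603 to 616 CPM in homozygous hearts, 592 to 707 CPM in heterozygous hearts, and 678 to 846 CPM in wild-type hearts. Dpt ran from 100.4 to 132 CPM in homozygous hearts, 132 to 142 CPM in heterozygous hearts, and 157 to 219 CPM in wild-type hearts. Pdgfra, Ddr2, Medag and Tcf21 overlapped between the groups, while Dpt, Pi16, Fbln1, Vim and Gsn lay lower in all 6 deletion libraries. Dcn and Mfap5 lay lower and Scara5 higher than both wild-type libraries in homozygous hearts only. Lum lay higher than both wild-type libraries in heterozygous hearts only. Gsn, the most abundant of the 13, weighs heavily in the sum. It ran from 978 to 1349 CPM in homozygous hearts, 1052 to 1438 CPM in heterozygous hearts, and 2405 to 2492 CPM in wild-type hearts. Of 9 smooth muscle and pericyte markers, 3 were lower and 1 higher in homozygous hearts, and 5 were lower and 1 higher in heterozygous hearts. Their sum overlapped between groups (1534 to 1692 CPM in homozygous, 1517 to 1858 CPM in heterozygous, and 1523 and 1781 CPM in wild-type hearts). Among them Cnn1, a contractile gene of smooth muscle, stood at 0.088 times wild type in homozygous hearts (adjusted p = 0.00581) and 0.065 times in heterozygous hearts (adjusted p = 0.00391), and Myh11, the smooth muscle myosin, at 0.27 times (adjusted p = 0.00611) and 0.25 times (adjusted p = 0.00439). Acta2, Tagln and Pdgfrb also lay lower in all 6 deletion libraries. Abcc9 lay higher in all 6, at 425 to 469 CPM in homozygous, 320 to 430 CPM in heterozygous, and 188 and 236 CPM in wild-type hearts. Rgs5, the most abundant of this list, overlapped between groups. Of 10 endothelial markers, 3 were lower in each genotype and 1 was higher in heterozygous hearts, and they summed to 1115 to 1368 CPM in homozygous hearts, 1077 to 1261 CPM in heterozygous hearts, and 1450 and 1491 CPM in wild-type hearts. Atrial markers fell in 5 of 7 tested in both genotypes. Their sum overlapped between groups (145 to 400.0 CPM in homozygous, 130 to 456.7 CPM in heterozygous, and 374 and 638 CPM in wild-type hearts). Nppa held most of that sum (102 to 362, 93.1 to 415, and 283 and 514 CPM in the same order). Nppa overlapped between groups, and Nr2f2 lay below both wild-type libraries in heterozygous hearts only. Myl7 stood at 0.18 to 0.37, 0.27 to 0.68, and 6.59 and 14.2 CPM in that order. Dkk3 stood at 2.36 to 4.85, 2.18 to 4.29, and 24.1 and 27.1 CPM. Myl4, Sln and Stard10 also lay lower in all 6 deletion libraries. The part of these markers in the collagen differences was not tested.

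The genes called also shared some sequence properties. Their transcripts had a median GC content of 60.8% (53.6% to 62.9%), against 54.5% (45.9% to 62.7%) for the 31 tested genes not called. Over 40 collagen genes the Spearman rank correlation of GC content with the log2 difference was -0.27 for homozygous and -0.39 for heterozygous hearts, and over 14165 genes it was -0.44 and -0.48. These are descriptions over genes that share the same libraries. When trends fitted by splines to GC content, transcript length and the length of the 3′ UTR were removed from every library, 7 collagen genes were lower in homozygous hearts, of which 6 were among the 8 called before, and 4 were lower in heterozygous hearts, all among the 7 called before. Over all genes in that fit, 5.63% were lower in homozygous and 5.53% in heterozygous hearts. After this correction, Col5a3 had a log2 difference of -0.72 (adjusted p = 0.0726) in homozygous and -0.63 (adjusted p = 0.114) in heterozygous hearts, against -0.75 and -0.76 without it. Col16a1 had -0.66 (adjusted p = 0.0706) and -0.62 (adjusted p = 0.0885), against -0.85 and -0.86 without it. Col7a1 had -1.30 (adjusted p = 0.0614) in heterozygous hearts, against -1.33 without it. With the same correction and without wild type 2, Col18a1 and Col12a1 were lower in homozygous hearts and Col11a2 in heterozygous hearts, 2 and 1 of 40, against 1.27% of all genes in each.

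**Figure D5:**
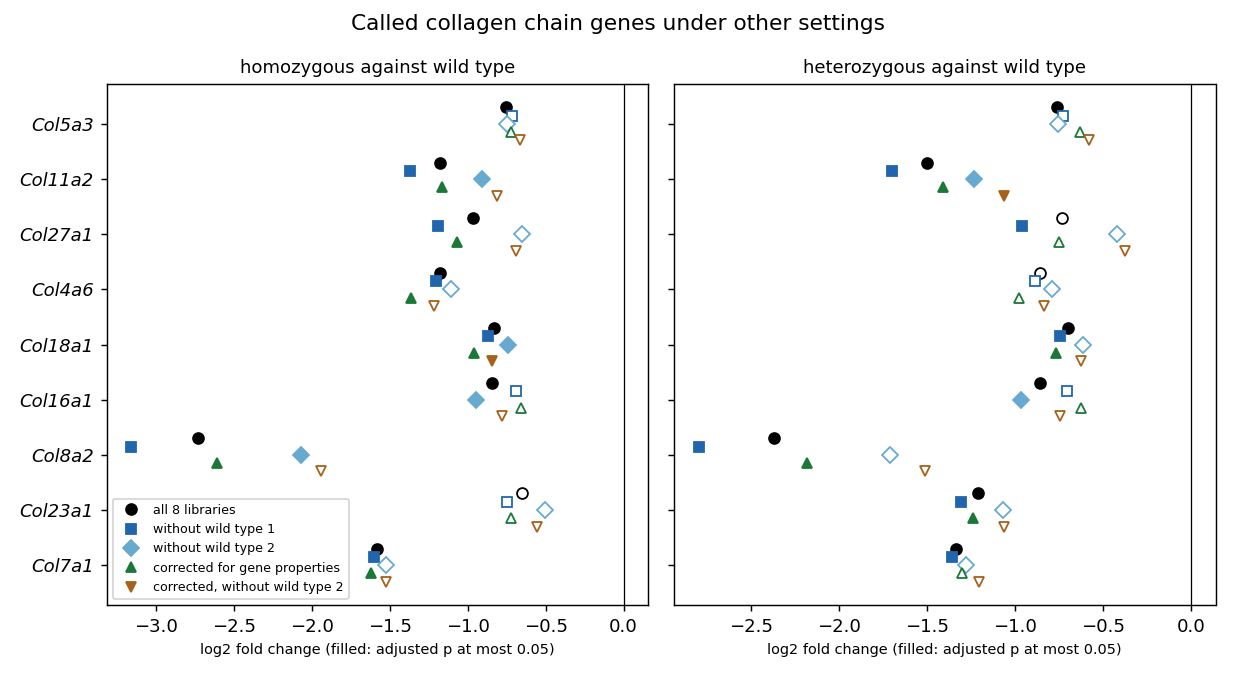
Log2 difference from wild type of the 9 called genes with all 8 libraries, without wild type 1, without wild type 2, after the correction for gene properties, and after that correction without wild type 2. Filled symbols are adjusted p at most 0.05. Every symbol lies left of 0, and Col11a2 in heterozygous hearts is the only gene filled in all 5 settings of a panel besides Col18a1 in homozygous hearts.

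Leaving out 1 library at a time showed which calls depended on which library. Col11a2 kept its call in both genotypes, as did Col18a1 and Col8a2 in homozygous hearts. In heterozygous hearts, Col8a2 lost its call without wild type 2 (log2 difference -1.71, adjusted p = 0.0642), and Col18a1 without heterozygous 1 (-0.58, adjusted p = 0.0616) or wild type 2 (-0.61, adjusted p = 0.0934). Col23a1 lost its call in heterozygous hearts without wild type 2 (-1.07, adjusted p = 0.0730). Col4a6 lost its call in homozygous hearts without homozygous 3 (-0.96, adjusted p = 0.0530) or wild type 2 (-1.11, adjusted p = 0.0786).

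Col7a1 lost its call in homozygous hearts without wild type 2 (-1.53, adjusted p = 0.0586), and in heterozygous hearts without heterozygous 2 (-1.27, adjusted p = 0.0881), heterozygous 3 (-1.20, adjusted p = 0.0936) or wild type 2 (-1.28, adjusted p = 0.105). Col27a1 lost its call in homozygous hearts without homozygous 1 (-0.78, adjusted p = 0.0792), homozygous 3 (-0.88, adjusted p = 0.0885) or wild type 2 (-0.65, adjusted p = 0.227). Col16a1 lost its call in homozygous hearts without homozygous 1 (-0.70, adjusted p = 0.0664), homozygous 3 (-0.74, adjusted p = 0.0746) or wild type 1 (-0.69, adjusted p = 0.0753), and in heterozygous hearts without heterozygous 2 (-0.85, adjusted p = 0.0588), heterozygous 3 (-0.81, adjusted p = 0.0644) or wild type 1 (-0.71, adjusted p = 0.0716). Col5a3 lost its call in homozygous hearts without homozygous 1 (-0.73, adjusted p = 0.0853), homozygous 3 (-0.58, adjusted p = 0.0933), heterozygous 2 (-0.75, adjusted p = 0.0507), wild type 1 (-0.72, adjusted p = 0.120) or wild type 2 (-0.75, adjusted p = 0.176). In heterozygous hearts Col5a3 lost it without heterozygous 2 (-0.76, adjusted p = 0.0797), heterozygous 3 (-0.59, adjusted p = 0.0912), wild type 1 (-0.72, adjusted p = 0.117) or wild type 2 (-0.76, adjusted p = 0.165). The direction stayed negative in each of these.

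Exon structure separated the classes. In fibrillar genes, 41.2% to 55.0% of coding exons (median 46.3%) were exactly 54 bases long, a length that encodes whole repeats of the helix, against 2.13% to 7.32% (median 4.05%) in basement membrane genes and 0% to 44.4% (median 8.11%) in the other types. Lengths that were multiples of 9 made up a median of 83.3%, 43.1% and 54.3% of coding exons in the same order of classes. The called genes come from each class, from Col8a2 with 2 coding exons to Col7a1 with 118.

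Promoter windows were available for 35 of 44 genes. Counted by gene, with a motif in at least 1 of its windows, a GC box was in 9 of 9 called genes, in 12 of 22 tested genes not called, and in 38.2% of 27025 genes with a window. Col18a1 has 2 windows, 1 of them with no GC box. A CCAAT box was in 4 of 9 and 7 of 22, against 41.1% of all genes with a window. TATAAA was in 1 of 9 (Col11a2) and 3 of 22 (Col3a1, Col13a1 and Col17a1), against 15.7% of all genes with a window. The windows below are shown because Col8a2 and Col11a2 are called genes, the first without TATAAA and the second with it, and Col3a1 is an abundant chain that was not called. They are from RefSeq, GRCm38.p6, 5′ to 3′ on the plus strand: Col8a2 at chr4:126286544-126286843, Col11a2 at chr17:34038888-34039187 and Col3a1 at chr1:45311288-45311587, with GC boxes and TATAAA in capitals.
Col8a2: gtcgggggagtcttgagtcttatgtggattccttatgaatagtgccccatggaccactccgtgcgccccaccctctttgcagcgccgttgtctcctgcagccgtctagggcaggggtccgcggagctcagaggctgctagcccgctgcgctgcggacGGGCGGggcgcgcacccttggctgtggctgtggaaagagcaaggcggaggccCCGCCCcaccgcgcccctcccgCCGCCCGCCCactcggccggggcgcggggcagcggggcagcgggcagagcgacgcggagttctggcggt
Col11a2: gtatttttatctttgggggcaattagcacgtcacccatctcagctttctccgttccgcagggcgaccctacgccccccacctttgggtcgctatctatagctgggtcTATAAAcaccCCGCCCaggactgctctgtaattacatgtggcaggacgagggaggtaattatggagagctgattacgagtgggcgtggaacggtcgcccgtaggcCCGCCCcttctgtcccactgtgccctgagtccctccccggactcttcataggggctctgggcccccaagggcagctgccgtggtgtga
Col3a1: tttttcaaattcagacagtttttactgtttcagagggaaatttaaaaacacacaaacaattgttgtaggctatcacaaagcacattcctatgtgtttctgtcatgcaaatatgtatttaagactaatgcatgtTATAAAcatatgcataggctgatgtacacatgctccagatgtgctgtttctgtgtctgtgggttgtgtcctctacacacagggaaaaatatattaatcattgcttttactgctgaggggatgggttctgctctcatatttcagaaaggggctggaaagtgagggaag
The Col3a1 window holds no GC box and 1 TATAAA, while Col8a2 and Col11a2 each hold more than 1 GC box, and the last capitals of Col8a2 are 2 that overlap.

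Genes that act on collagen were read from lists of the pathway, and the gene with the smallest p of each list is given here with its values, with both subunits for the receptors. In each pair of differences below, the first is of homozygous and the second of heterozygous hearts from wild type. Over all genes tested, 12.4% were lower and 15.3% higher in homozygous hearts, and 12.8% lower and 15.2% higher in heterozygous hearts. The lists are small and were not tested as sets, so counts near these shares are not a result about a list. Of 20 genes for hydroxylation and folding of chains, 3 were lower and 1 higher in homozygous hearts, and 4 were lower and 1 higher in heterozygous hearts. P3h3, a prolyl hydroxylase, stood at 17.4, 20.3 and 14.4 CPM in homozygous hearts, 17.6, 20.2 and 18.6 CPM in heterozygous hearts, and 34.9 and 42.7 CPM in wild-type hearts. The groups did not overlap, and the log2 differences were -1.16 (adjusted p = 0.00124) and -1.04 (adjusted p = 0.00192). With the correction for gene properties, 1 gene of this list was lower in homozygous hearts and 2 were lower in heterozygous hearts, P3h3 among them. In that fit 5.63% and 5.53% of all genes were lower.

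Of 9 genes for cleavage of procollagen, 2 were lower and 2 higher in homozygous hearts, and 2 were lower and 3 higher in heterozygous hearts. Pcolce, which enhances that cleavage, stood at 63.8, 58.7 and 49.0 CPM in homozygous hearts, 62.6, 56.8 and 56.02 CPM in heterozygous hearts, and 120.1 and 97.3 CPM in wild-type hearts. It fell by 0.93 (adjusted p = 0.00162) and by 0.89 (adjusted p = 0.00177) on the log2 scale. With the correction, its differences were -0.40 (adjusted p = 0.116) and -0.38 (adjusted p = 0.138) and no longer called. Of 5 crosslinking genes, 1 was lower in each genotype. That gene was Loxl3, a lysyl oxidase, with differences of -0.94 (adjusted p = 0.0186) and -1.14 (adjusted p = 0.00792). Its call was lost in homozygous hearts without homozygous 1 (-0.94, adjusted p = 0.0558), homozygous 3 (-0.88, adjusted p = 0.0687) or wild type 2 (-0.52, adjusted p = 0.234), and in heterozygous hearts without wild type 2 (-0.72, adjusted p = 0.0929).

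Of 13 genes of collagen breakdown and its inhibitors, 2 were lower in each genotype and 1 was higher in homozygous hearts. Mmp14, a membrane-bound collagenase, stood at 28.4, 38.8 and 30.7 CPM in homozygous hearts, 39.9, 27.1 and 31.6 CPM in heterozygous hearts, and 64.8 and 89.3 CPM in wild-type hearts. It fell by 1.24 (adjusted p = 0.00205) and by 1.23 (adjusted p = 0.00195). Of 10 collagen receptor genes, 1 was lower and 2 higher in each genotype. The higher ones were Itga1 and Itgb1, the subunits of a collagen-binding integrin. Itga1 stood at 68.0, 66.2 and 51.7 CPM in homozygous hearts, 62.8, 64.5 and 42.5 CPM in heterozygous hearts, and 26.9 and 25.1 CPM in wild-type hearts, with differences of 1.25 (adjusted p = 0.0018) and 1.12 (adjusted p = 0.00276). Itgb1 differed by 0.998 (adjusted p = 0.00395) and 1.03 (adjusted p = 0.00319). With the correction, Itga1 differed by 0.47 (adjusted p = 0.145) and 0.30 (adjusted p = 0.350) and was not called, while Itgb1 was still called higher in both.

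Of 15 proteins that bind or space fibrils, 4 were lower and 1 higher in homozygous hearts, and 4 were lower and 2 higher in heterozygous hearts. Comp, which is also one of the tendon markers above, stood at 2.14, 3.07 and 2.72 CPM in homozygous hearts, 1.91, 2.41 and 1.13 CPM in heterozygous hearts, and 17.3 and 20.2 CPM in wild-type hearts. Its differences were -2.82 (adjusted p = 0.000294) and -3.36 (adjusted p = 0.000131). Of 17 genes of the TGF-beta pathway, which drives matrix production, 5 were lower and 2 higher in each genotype. Tgfb1, a ligand, stood at 31.8, 33.1 and 32.5 CPM in homozygous hearts, 31.5, 32.9 and 33.6 CPM in heterozygous hearts, and 53.8 and 80.1 CPM in wild-type hearts. It fell by 1.05 (adjusted p = 0.00132) and by 1.03 (adjusted p = 0.0013), and the wild-type libraries lay further apart than the 6 deletion libraries did. The correction without wild type 2 leaves 1 wild-type library, so only differences are given for it here. They were -0.63 and -0.49 for P3h3, -0.80 and -0.77 for Mmp14, 0.51 and 0.52 for Itgb1, and -0.26 and -0.25 for Tgfb1. Each kept its sign and was smaller in size than with all libraries and no correction. Comp and Pcolce also had negative differences in both genotypes in that fit. In the correction without wild type 1, chosen after the data were seen, Pcolce differed by only -0.13 and -0.11.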

How the data were processed

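RNA of 8 mouse heart libraries was counted per gene. The authors deposited raw counts of 24516 gene symbols. The submitters' processing notes list mm10 and, with no roles, the tools featureCounts, Subread, HISAT2, DESeq2 and Trimmomatic 0.36. Which annotation and strand setting were used, and how multiple mapping was handled, is not given in the sources used here, so reads shared by overlapping genes cannot be told apart. Of counts from 1 to 10, 71.4% were even, so single counts may not be independent molecules. Groups follow the labels' titles.

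Counts were scaled by TMM and kept by filterByExpr in edgeR 4.0.16 (R 4.3.3), and all 8 libraries entered 1 robust quasi-likelihood fit, with Benjamini-Hochberg adjustment over 15075 genes and a threshold of 0.05. The spread of each gene is shared by the genotypes. Alternatives used DESeq2 1.42.0, limma 3.58.1 (voom), other scalings and filters, a fit of only the groups compared, single libraries left out, the replicate number as a block, and a correction by splines of 4 degrees of freedom on GC content, transcript length and the length of the 3′ UTR, taken from GENCODE vM21 (98.5% of symbols matched). Promoters are from RefSeq. Same-numbered libraries of the deletion genotypes had correlated deviations of 0.177, 0.138 and -0.023, so the numbers were not taken as pairs. Values are given in every library for called members and the 4 most abundant of each class. For the 3 with the smallest p between homozygous and heterozygous hearts, the fold and its interval are given. Gene members, classes, markers and lists were chosen with earlier results of these data known.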

Additional observations from a re-analysis of the deposited data

How the results depend on the processing

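The counts of collagen chain genes called depended on the libraries and on the gene properties. Called lower were 8 in homozygous and 7 in heterozygous hearts with all libraries. The gene property correction gave 7 and 4, the correction with the replicate block gave 5 and 3, and the correction without wild type 2 gave 2 and 1. The correction without wild type 1 was chosen after the data were seen and leaves 1 wild-type library, so only differences are given. In it Col13a1 had log2 differences of 1.61 in homozygous and 1.69 in heterozygous hearts. Col20a1 had -1.51 in homozygous hearts and Col22a1 -3.19 in heterozygous hearts. The replicate block called 1 gene higher in heterozygous hearts (Col6a3, log2 difference 0.51). Leaving out single libraries gave 4 to 9 lower and 0 to 1 higher in homozygous hearts, and 2 to 8 lower and 0 to 4 higher in heterozygous hearts. DESeq2 called 9 lower in homozygous and 10 in heterozygous hearts. Over all 15075 genes and both directions, DESeq2 called 4874 and 4943 genes, against 4180 and 4219 by edgeR. For the replicate block, with or without the correction, and the fits without a deletion library, the shares over all genes were not counted. Homozygous against heterozygous gave 0 calls in each of these settings. The block is reported although the numbers do not pair the samples, and with it 8 were lower in homozygous and 6 in heterozygous hearts. In heterozygous hearts the block ended the calls of Col18a1 (adjusted p = 0.0518), Col16a1 (0.0522) and Col7a1 (0.0606) and added those of Col27a1 (0.0406) and Col22a1 (0.0343). A fit of only the groups compared ended the homozygous calls of Col27a1 (adjusted p = 0.0546) and Col16a1 (0.0514). None of the 9 called collagen genes changed sign in these settings. Abundant chains that were not called changed sign in several settings, given here with the log2 difference from wild type. Limma-voom did so for Col3a1 (0.011) in homozygous hearts. Limma-voom did so for Col5a1 (0.054) in heterozygous hearts. The replicate block did so for Col3a1 (0.10) and Col5a1 (0.10) in homozygous hearts. The replicate block did so for Col1a1 (0.048), Col5a1 (0.19), Col15a1 (0.088) and Col6a2 (0.085) in heterozygous hearts. The gene property correction did so for Col4a5 (-0.080), Col6a3 (-0.41) and Col8a1 (-0.22) in homozygous hearts. The gene property correction did so for Col3a1 (-0.038), Col4a5 (-0.13), Col6a2 (0.012) and Col6a3 (-0.23) in heterozygous hearts. The correction with the replicate block did so for Col4a5 (-0.053), Col6a2 (0.025) and Col6a3 (-0.26) in homozygous hearts. The correction with the replicate block did so for Col1a2 (0.020), Col1a1 (0.14), Col5a1 (0.14), Col15a1 (0.17), Col4a5 (-0.094), Col6a1 (0.11), Col6a2 (0.19) and Col6a3 (-0.064) in heterozygous hearts. The correction without wild type 2 did so for Col4a1 (-0.28), Col4a2 (-0.19), Col6a3 (-0.38) and Col8a1 (-0.44) in homozygous hearts. The correction without wild type 2 did so for Col3a1 (-0.52), Col4a1 (-0.10), Col4a5 (-0.051) and Col6a3 (-0.18) in heterozygous hearts. The correction without wild type 1 did so for Col3a1 (0.55), Col1a2 (0.30), Col1a1 (0.44), Col5a1 (0.28), Col4a5 (-0.13), Col6a1 (0.17), Col6a2 (0.47) and Col6a3 (-0.39) in homozygous hearts. The correction without wild type 1 did so for Col1a2 (0.55), Col1a1 (0.65), Col5a1 (0.42), Col15a1 (0.16), Col4a5 (-0.18), Col6a1 (0.32), Col6a2 (0.66) and Col6a3 (-0.17) in heterozygous hearts. When single libraries were left out, the ranges that crossed 0 were those of Col3a1 (-0.61 to 0.76), Col1a2 (-0.93 to 0.37), Col1a1 (-0.85 to 0.52), Col5a1 (-0.47 to 0.50), Col4a1 (-0.27 to 0.65), Col4a2 (-0.24 to 0.63), Col6a1 (-0.61 to 0.051), Col6a2 (-0.68 to 0.47) and Col8a1 (-0.13 to 0.49) in homozygous hearts. They were also those of Col3a1 (-0.49 to 0.88), Col1a2 (-0.76 to 0.54), Col1a1 (-0.73 to 0.64), Col5a1 (-0.40 to 0.56), Col4a1 (-0.18 to 0.75), Col4a2 (-0.14 to 0.73), Col15a1 (-0.28 to 0.12), Col6a1 (-0.52 to 0.15) and Col6a2 (-0.56 to 0.59) in heterozygous hearts. The causes of these changes were not tested. Depth limits the genes under 1 CPM, whose intervals are wide.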
